A study of Mus musculus with 8 samples.

Results

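The immunoglobulin heavy chain variable (Ighv) segments of the mouse were examined in whole mammary glands. They were chosen by their measured values, as symbols that start with Ighv and have a sum of 80 or more counts over the 8 libraries of the deposited count table. The table held 185 Ighv entries, of which 69 met the rule, 53 had fewer counts and 63 had none. The 69 segments held 35649 of the 36637 Ighv counts (97.3%). Every one was annotated as an intact variable gene and lay on the minus strand of chromosome 12 of GRCm38, between positions 113588267 and 116000461.

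The study asked how small extracellular vesicles (sEVs) released by breast cancer cells act on the normal mammary gland. RNA was sequenced from glands of female C57BL/6 mice, taken 6 weeks after injection of sEVs from AT3 cells, a mouse mammary adenocarcinoma line. Glands of the sEVNORM group (n = 3) received vesicles of cells kept in normoxia, glands of the sEVHYP group (n = 2) received vesicles of cells kept in hypoxia, and control glands (sEVCTRL, n = 3) received the same preparation made from medium that no cells had conditioned. All mice were immunocompetent and carried no transgene, and their age is not given in the sources used here. Library totals ran from 18194996 to 24622569 counts, and p-values below measure the spread between single glands.

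Each developing B cell joins 1 Ighv segment to a D and a J segment, and the joined variable region is transcribed together with a constant region such as Ighm or, after class switching, Ighg1. B cells that descend from the same ancestor therefore keep the same Ighv segment, and plasma cells, which secrete antibody, hold far more of this RNA than resting B cells. In the mammary gland such cells are found in the stroma, around ducts and in the lymph node embedded in the fat pad.

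The reference sequences of 6 segments on which the results turn are printed here, from the GENCODE M21 transcripts of GRCm38. They are the segment with the largest share in any gland (Ighv3-6), the next leaders of single glands (Ighv5-4, Ighv1-82, Ighv1-55 and Ighv1-39) and Ighv1-26, which had a steady share in all glands. Each is the coding strand of the variable exon, 5′ to 3′, cut to at most the last 300 bases. Capitals run from the codon of the conserved cysteine near the 3′ end to the end of the transcript model read, at or near which the joint with the D segment forms. For Ighv3-6 that model stops short of the annotated end of the gene at position 114288152.

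Ighv3-6 (GRCm38 chr12:114288157-114288455, minus strand): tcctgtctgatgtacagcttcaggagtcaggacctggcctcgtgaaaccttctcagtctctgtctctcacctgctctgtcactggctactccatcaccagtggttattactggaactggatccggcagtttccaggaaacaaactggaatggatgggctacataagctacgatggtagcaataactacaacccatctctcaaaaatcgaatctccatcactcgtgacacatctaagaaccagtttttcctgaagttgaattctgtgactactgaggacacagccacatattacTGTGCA
Ighv5-4 (GRCm38 chr12:113597446-113597745, minus strand): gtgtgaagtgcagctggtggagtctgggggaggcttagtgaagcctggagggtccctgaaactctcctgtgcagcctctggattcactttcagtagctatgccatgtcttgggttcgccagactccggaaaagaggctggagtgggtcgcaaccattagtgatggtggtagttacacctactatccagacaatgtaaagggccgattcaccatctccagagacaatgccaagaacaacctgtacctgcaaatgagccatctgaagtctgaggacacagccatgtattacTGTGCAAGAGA
Ighv1-82 (GRCm38 chr12:115952538-115952837, minus strand): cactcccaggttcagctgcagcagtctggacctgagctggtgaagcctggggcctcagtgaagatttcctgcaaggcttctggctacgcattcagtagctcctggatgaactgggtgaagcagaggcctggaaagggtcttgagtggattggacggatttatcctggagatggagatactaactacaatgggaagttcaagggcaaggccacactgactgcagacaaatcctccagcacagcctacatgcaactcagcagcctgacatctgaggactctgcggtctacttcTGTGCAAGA
Ighv1-55 (GRCm38 chr12:115208095-115208394, minus strand): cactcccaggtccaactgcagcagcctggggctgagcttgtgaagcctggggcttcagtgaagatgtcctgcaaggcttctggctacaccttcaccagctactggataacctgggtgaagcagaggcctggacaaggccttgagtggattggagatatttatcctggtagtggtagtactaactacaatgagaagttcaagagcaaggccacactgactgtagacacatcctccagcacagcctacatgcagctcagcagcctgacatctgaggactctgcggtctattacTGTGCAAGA
Ighv1-39 (GRCm38 chr12:114914599-114914898, minus strand): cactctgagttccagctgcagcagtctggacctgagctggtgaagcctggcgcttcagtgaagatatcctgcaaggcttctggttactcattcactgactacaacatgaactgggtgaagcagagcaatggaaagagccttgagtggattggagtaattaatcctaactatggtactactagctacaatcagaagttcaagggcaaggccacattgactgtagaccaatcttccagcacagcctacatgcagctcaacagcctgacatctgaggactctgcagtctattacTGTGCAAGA
Ighv1-26 (GRCm38 chr12:114788372-114788671, minus strand): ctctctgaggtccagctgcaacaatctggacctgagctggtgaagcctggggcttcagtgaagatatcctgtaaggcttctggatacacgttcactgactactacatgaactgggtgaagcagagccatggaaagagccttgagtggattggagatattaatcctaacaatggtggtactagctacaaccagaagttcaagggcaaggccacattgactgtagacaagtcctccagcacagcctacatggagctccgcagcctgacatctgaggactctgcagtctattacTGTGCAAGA

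These sequences limit how finely counts can be given to a segment. Over the whole coding sequence, the closest other Ighv entry of the annotation was between 79.7% and 99.7% identical, with a median of 95.7%, and 46 of the 69 segments had at least 1 other entry at 95% identity or more. Counts of those 46 can be split among near copies. Ighv3-6 was not among them: its closest entry, Ighv3-1, was 91.5% identical. Ighv1-39 (closest entry Ighv1-19, 93.2%) was also outside, whereas Ighv1-55 (Ighv1-62, 97.1%), Ighv1-82 (Ighv1-80, 95.4%), Ighv5-4 (Ighv5-6, 95.5%) and Ighv1-26 (Ighv1-18, 96.7%) had near copies. Ighv1-55 and Ighv1-39, the joint leaders of 1 gland, were not near copies of each other (83.5% identical).

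Segment use differed from gland to gland, and the largest departures belonged to single glands rather than to a treatment group. The share of a segment is its count as a percentage of the Ighv counts of the same gland, and intervals are exact (Clopper-Pearson) 95% intervals, which cover counting error only. In sEVCTRL replicate 2, Ighv3-6 alone held 66.9% of 3396 Ighv counts (interval 65.3 to 68.5). Its share in the other 7 glands was 6.57% to 11.2%, so that it ranked among the 3 leading segments in 6 of the 8 glands.

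**Figure D1:**
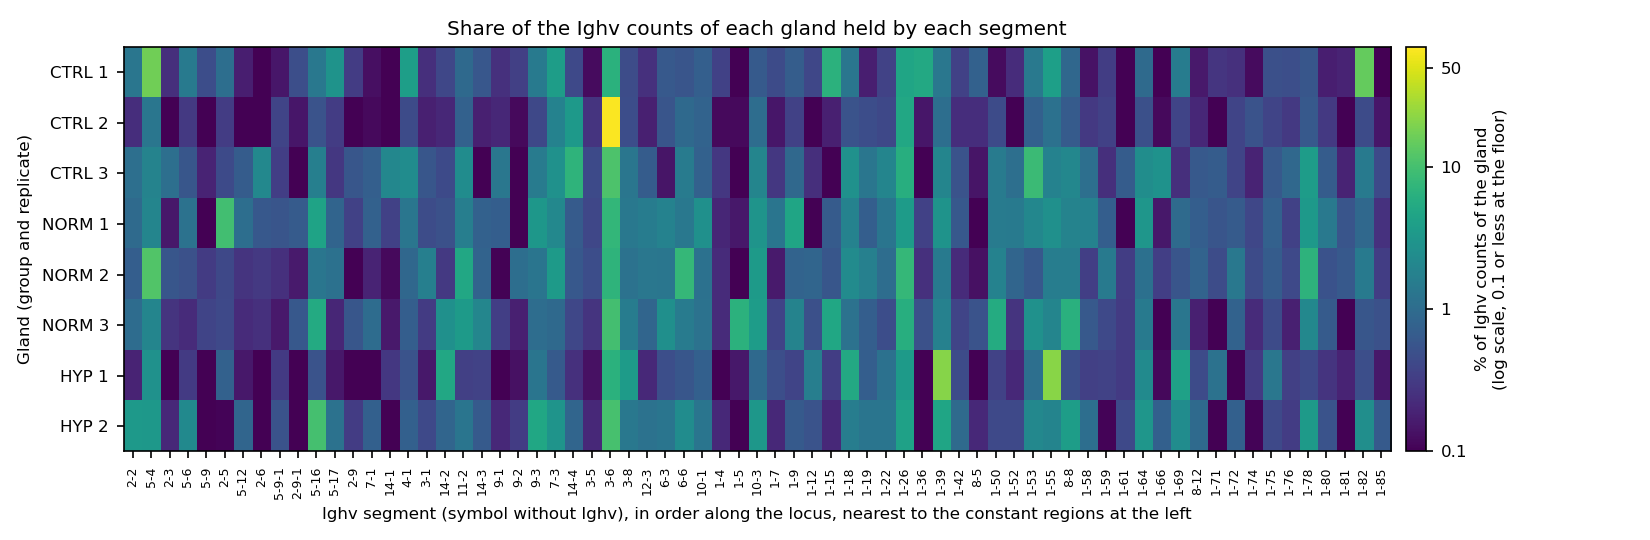
Share of the Ighv counts of each gland (rows) held by each of the 69 segments (columns, in their order along the locus), as a color on a log scale in percent. Ighv3-6 and Ighv1-26 form columns of raised share in all 8 glands, and the brightest cell is Ighv3-6 in sEVCTRL replicate 2 at 66.9%.

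The level of Ighv3-6, in CPM (counts scaled to the effective library size), was 36.1, 104 and 12.8 in the sEVCTRL glands, 6.11, 21.4 and 20.7 in the sEVNORM glands and 15.8 and 5.24 in the sEVHYP glands. The gland with the raised share also had the highest level, and the ranges of the groups overlapped. Without Ighv3-6, the other segments of sEVCTRL replicate 2 summed to 51.2 CPM.

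In sEVHYP replicate 1, Ighv1-55 held 21.6% (interval 20.5 to 22.8) and Ighv1-39 held 21.2% (20.1 to 22.3) of 5205 Ighv counts. The same segments held 1.15% to 4.02% and 1.06% to 4.68% in the other glands. Ighv1-55 stood at 51.5 CPM in this gland, at 22.1 CPM in sEVCTRL replicate 1 and at 0.963 to 4.83 CPM elsewhere. Ighv1-39 stood at 50.5 CPM there and at 1.64 to 7.46 CPM elsewhere, and the other sEVHYP gland, at 2.35 CPM, lay inside the range of the control glands.

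The sEVCTRL replicate 1 gland had 2 leading segments from opposite ends of the locus. Ighv5-4, near the constant regions, held 17.0% (16.3 to 17.7) and Ighv1-82, near the far end, held 14.8% (14.2 to 15.5) of 10821 counts. Ighv5-4 also led sEVNORM replicate 2, with 11.8% (11.1 to 12.6), and held 1.30% to 3.30% in the remaining glands. Ighv1-82 had no second gland of this kind, with 0.442% to 2.55% elsewhere.

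The other 4 glands had flatter profiles. Ighv2-5 led sEVNORM replicate 1 with 9.58% (8.32 to 10.97), against 0.106% to 1.06% in every other gland. Ighv3-6 led sEVCTRL replicate 3 with 11.2%, sEVNORM replicate 3 with 9.77% and sEVHYP replicate 2 with 10.4%. Behind it came Ighv1-53 in sEVCTRL replicate 3 (8.69%), Ighv1-5 in sEVNORM replicate 3 (6.73%) and Ighv5-16 in sEVHYP replicate 2 (10.1%), whose interval overlapped that of Ighv3-6.

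Some segments had a steady place in all glands. Ighv1-26 held between 3.57% and 7.90% of the Ighv counts of every gland at a level of 2.14 to 26.0 CPM, and its sum of 1918 counts was the third highest after Ighv3-6 (4734) and Ighv5-4 (3026). Of the 69 segments, 57 had at least 1 count in all 8 libraries.

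**Figure D2:**
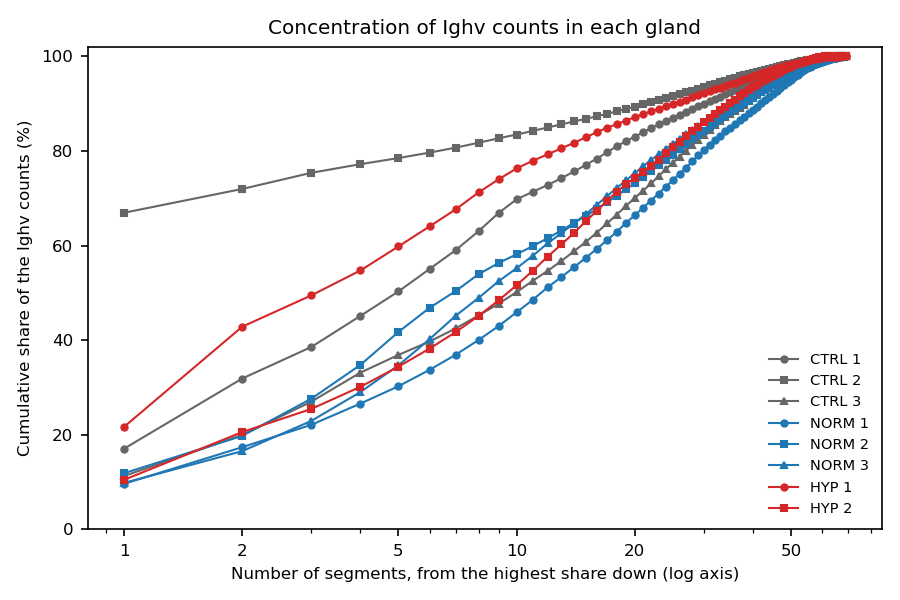
Cumulative share of Ighv counts (percent, y axis) against the number of segments taken from the highest share down (log x axis), 1 line for each gland, colored by group. The curve of sEVCTRL replicate 2 starts at 66.9%, and those of sEVHYP replicate 1 and sEVCTRL replicate 1 run above the other 5.

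Concentration was summarized by the effective number of segments, the unbiased inverse Simpson index, which is the number of equally used segments that would give the same chance of drawing the same segment with 2 counts. It was 13.7, 2.21 and 24.9 in the sEVCTRL glands, 30.5, 21.4 and 25.1 in the sEVNORM glands and 9.20 and 24.96 in the sEVHYP glands. The lowest 3 values belonged to sEVCTRL replicate 2, sEVHYP replicate 1 and sEVCTRL replicate 1, and the highest glands of the sEVCTRL and sEVHYP groups, at 24.9 and 24.96, lay within the sEVNORM range.

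Group means of the effective number were 13.6 ± 11.3 (SD, n = 3) for sEVCTRL, 25.7 ± 4.55 (SD, n = 3) for sEVNORM and 17.1 ± 11.1 (SD, n = 2) for sEVHYP. The ranges of all 3 groups overlapped. Without sEVCTRL replicate 2, the difference of sEVHYP from sEVCTRL turned from 3.47 to -2.24, and without sEVHYP replicate 2 it was -4.41. The difference of sEVHYP from sEVNORM was -8.61, and it was -0.72 without sEVHYP replicate 1 and -16.5 without sEVHYP replicate 2.

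At an equal depth, the 940 counts of the shallowest gland, the expected number of segments with a count was lowest in sEVCTRL replicate 2 (58.0) and sEVHYP replicate 1 (58.7), and the other glands lay between 61.0 and 65.4. With its leading segment left out, sEVCTRL replicate 2 had an effective number of 20.7 and sEVHYP replicate 1 one of 9.92. Counted another way, 1 segment made up 50% of the counts of sEVCTRL replicate 2, 4 segments those of sEVHYP replicate 1, 5 those of sEVCTRL replicate 1, and 7 to 12 those of the other glands.

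Dominance was also read from the side of the segment, as the share of its summed CPM that came from its highest gland. This share was over 50% for 21 of the 69 segments (30.4%), against 83 of 16880 genes with a sum of 80 counts or more (0.492%). Its median was 40.5% over the segments and 16.6% over those genes. Sums over all 8 libraries chose the segments, and 21 would have fallen under 80 counts without their highest library, so these values describe the segments chosen and were not tested.

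Single-gland segments stood out in sEVCTRL replicate 1 (9 segments), sEVNORM replicate 2 (4), sEVCTRL replicate 3 (3), sEVHYP replicate 1 (3) and sEVNORM replicate 3 (2), and the other 3 glands had none. When each gland's Ighv counts were first set to the same total, 11 segments rather than 21 were past 50%. By CPM, leaving out 1 gland at a time gave 22 to 28 segments past 50%.

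Ighv1-36 had the largest single-gland share at 91.7%, with 560 of its 617 counts in sEVCTRL replicate 1. Its counts in the other glands were 5 and 0 in sEVCTRL, 7, 17 and 23 in sEVNORM and 5 and 0 in sEVHYP. Ighv1-5 followed at 91.3%, with 301 of 330 counts in sEVNORM replicate 3 and 0 to 8 in each other gland.

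Ighv1-82 came next at 88.0%, with 81.5 CPM in sEVCTRL replicate 1 and 0.684 to 4.39 CPM elsewhere. Ighv1-15 (72.3%) and Ighv5-17 (71.7%) also peaked in that gland, at 36.7 and 15.9 CPM. The next highest gland of Ighv1-15 was sEVNORM replicate 3 with 10.5 CPM.

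At the other end, the lowest single-gland shares belonged to Ighv5-9-1 (18.8%), Ighv1-58 (19.0%), Ighv5-12 (20.2%), Ighv1-80 (21.7%) and Ighv1-64 (22.1%). Ighv1-58 ranged only from 0.456 to 1.45 CPM over the 8 glands. Each of these even segments was of low to middling level, with sums of 92 to 524 counts.

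**Figure D3:**
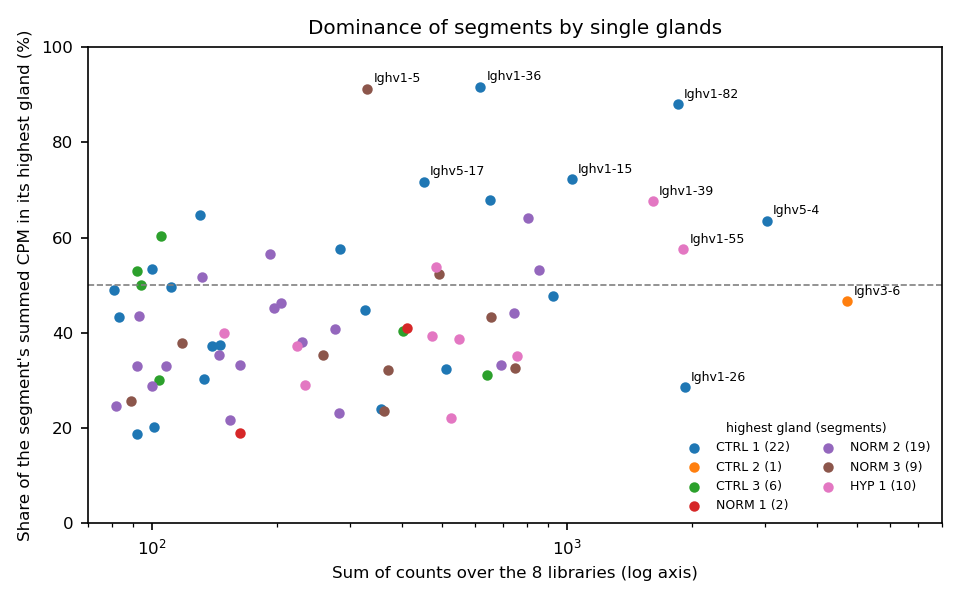
Share of a segment's summed CPM in its highest gland (percent, y axis) against its sum of counts over the 8 libraries (log x axis), 1 point for each of the 69 segments, colored by the gland in which it was highest. The dashed line marks 50%, and 21 points lie above it, up to 91.7% for Ighv1-36.

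The rule's limit of 80 counts cut through segments of like values. Just inside were Ighv1-4 with 81 counts and Ighv1-61 with 82, and just outside were Ighv3-3 with 75 and Ighv8-2 with 68. Of the 75 counts of Ighv3-3, 52 came from sEVCTRL replicate 1, and that gland also gave 38 of the 81 counts of Ighv1-4.

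By family, the numbered classes of Ighv segments of related sequence, family 1 was the largest with 33 of the 69 segments. Its segments start beyond those of families 2 and 5, seen from the constant regions, and held 16.1% to 71.1% of the Ighv counts of a gland, with a median of 44.4%. The lowest value belonged to sEVCTRL replicate 2 and the highest to sEVHYP replicate 1, the glands led by Ighv3-6 and by the family 1 pair Ighv1-55 and Ighv1-39. The other 6 glands lay between 37.4% and 48.6%.

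Family 3, with 4 segments, held 67.8% in sEVCTRL replicate 2 and 7.39% to 13.5% elsewhere. Family 5, with 7 segments next to the constant regions, was highest in sEVCTRL replicate 1 (23.5%) and sEVHYP replicate 2 (18.2%) and lowest in sEVCTRL replicate 2 (2.94%). Family 2 reached 12.3% in sEVNORM replicate 1 through Ighv2-5 and was at most 5.42% in the other glands. Family 14 reached 9.64% in sEVCTRL replicate 3, with Ighv14-4 as its main segment, against 1.52% to 5.99% elsewhere.

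Profiles were compared between pairs of glands. The overlap of use, summed over segments as the smaller of the 2 shares, had a median of 46.3% over the 7 pairs within a group and 47.9% over the 21 pairs between groups, with a range of 30.7% to 71.1% over all 28. Spearman's rho of the shares over the 69 segments was 0.20 to 0.73. Pairs share glands, and all glands share a reference and a library protocol, so these values are a description.

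The summed level of the 69 segments was 549, 155 and 114 CPM in the sEVCTRL glands, 78.9, 300 and 211 CPM in the sEVNORM glands and 238 and 50.3 CPM in the sEVHYP glands. Group means were 273 ± 240 (SD, n = 3), 197 ± 111 (SD, n = 3) and 144 ± 133 (SD, n = 2) CPM. The sEVCTRL and sEVNORM ranges overlapped, and the higher sEVHYP gland lay inside both. In bulk tissue, fewer B-lineage cells and less Ighv RNA per cell cannot be told apart.

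As a log2 ratio of group means the summed level of sEVHYP stood at -0.92 against sEVCTRL and at -0.45 against sEVNORM, and sEVNORM stood at -0.47 against sEVCTRL. Without sEVCTRL replicate 1, the first became 0.10 and the last 0.55. Without sEVHYP replicate 2, the comparison with sEVNORM became 0.28, and without sEVHYP replicate 1 the ratios of sEVHYP were -2.44 and -1.97. The sums therefore show no direction between groups that holds when 1 gland is left out.

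**Figure D4:**
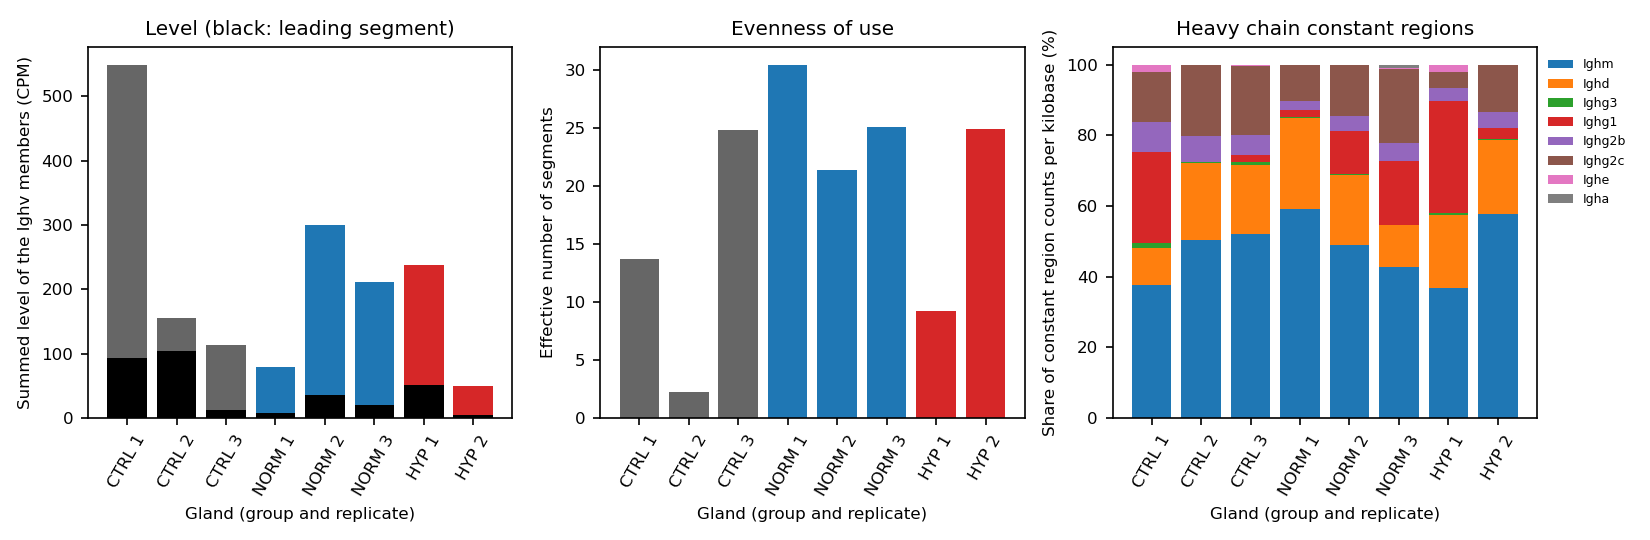
Left, summed level of the 69 segments in CPM for each gland, with the leading segment in black. Middle, effective number of segments, from 2.21 in sEVCTRL replicate 2 to 30.5 in sEVNORM replicate 1. Right, share of each heavy chain constant region in the constant region counts per kilobase of exon (percent).

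Constant region genes, which are transcribed with the joined segment, were read beside it. Ighm, the constant region of IgM, ran from 859 to 3379 CPM and had the largest share per kilobase of the 8 constant regions in every gland, from 36.7% to 59.0%. Ighg1, which encodes the IgG1 constant region, spanned a much wider range. It had 62794, 32 and 1332 counts in the sEVCTRL glands, 1842, 21058 and 21497 in the sEVNORM glands and 29989 and 1270 in the sEVHYP glands.

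Ighe, the constant region of IgE, had most of its counts in sEVCTRL replicate 1 (2849) and sEVHYP replicate 1 (1172), the glands led by Ighv5-4 with Ighv1-82 and by Ighv1-55 with Ighv1-39. The other glands had 5 to 261 Ighe counts. sEVCTRL replicate 2, with 66.9% of its segment counts in Ighv3-6, had 12 Ighe and 32 Ighg1 counts. Of its constant region counts per kilobase, Ighm held 50.3%, Ighd 21.9%, Ighg2c 20.1% and Ighg2b 7.31%.

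Ighd, expressed with Ighm before class switching, took 10.5% to 25.8% of the constant region counts per kilobase. Igha, of IgA, was highest in sEVNORM replicate 3 with 1091 counts against 42 to 278 elsewhere, and Ighg3 was highest in sEVCTRL replicate 1 with 3255 counts against 20 to 565. Switched constant regions together made up 15.1% (sEVNORM replicate 1) to 52.0% (sEVCTRL replicate 1), and Jchain, which links antibody units in secreted polymers, was at 176 to 1223 CPM. For every 100 constant region counts there were 2.80 to 7.75 Ighv counts, highest in sEVCTRL replicate 2.

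The kappa light chain gave a separate readout of B-lineage cells. In bulk RNA its counts cannot be tied to the cells that gave the Ighv counts. Among 79 Igkv segments with 80 or more counts, Igkv1-117 held 25.9% (25.4 to 26.4) in sEVHYP replicate 1 and 3.50% to 5.60% elsewhere. Igkv1-110 held 12.6% in sEVCTRL replicate 1 against 2.30% to 5.92% elsewhere, and Igkv6-23 held 13.0% in sEVCTRL replicate 2 against 0.378% to 2.71% elsewhere. These are the 3 glands with the lowest effective number of Ighv segments, but a leading kappa segment above its share in the other 7 glands was not particular to them. It was seen in 6 of the 8 glands, where the leaders of sEVNORM replicate 2, sEVCTRL replicate 3 and sEVNORM replicate 3 held 15.3%, 13.9% and 14.8% against at most 12.4%, 12.9% and 13.5% elsewhere.

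The size of the light chain departure was not that of the heavy chain. The effective number of Igkv segments was 8.56 in sEVHYP replicate 1 and 16.6 to 25.5 in the other glands, and sEVCTRL replicate 2, with 2.21 for Ighv, had 20.1 for Igkv. Igkv10-96, the leader of 3 glands, was common to all with 4.19% to 14.8%.

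Marker lists were read in the same libraries. The summed level of 10 B cell markers was 1307 to 2812 CPM in the sEVCTRL glands, 1346 to 3254 in sEVNORM and 942 to 2031 in sEVHYP, and that of 10 plasma cell markers 741 to 2199, 795 to 1288 and 824 to 994 CPM. For lymph node stroma, 7 of 8 listed markers were found, at 1594 to 2152, 2016 to 2971 and 1401 to 1812 CPM. The sEVHYP range of this list lay below that of sEVNORM. Luminal epithelial markers, 8 in all, were at 828 to 1841 CPM, and 6 skeletal muscle markers at 548 to 6618, 7.31 to 2417 and 3656 to 10532 CPM, so that sEVHYP lay above sEVNORM. Basal epithelial markers, 6 in all, were at 297 to 437, 304 to 390 and 475 to 483 CPM, with sEVHYP above both other groups. In the edgeR comparisons described below, 1 of these 6 was higher at an unadjusted P under 0.05 against sEVCTRL and 0 against sEVNORM. Of the plasma cell markers, 1 of 10 was higher in sEVHYP against sEVCTRL, where 1.39% of all genes were. Of the lymph node stroma markers, 1 of 7 was lower in sEVHYP against sEVNORM, where 1.7% of all genes were. Of the muscle markers, 0 of 6 passed in either comparison. The summed levels of 8 T cell markers (308 to 607 CPM) and 6 adipocyte markers (5462 to 9768 CPM) had overlapping ranges in all 3 groups. No marker of these lists was at 0 in all glands. The muscle and luminal lists were highest and the B cell and lymph node stroma lists lowest in sEVHYP replicate 2, the gland with the lowest Ighv level. The plasma cell list was not low there. It stood at 994 CPM, against 824 CPM in sEVHYP replicate 1, 795 CPM in sEVNORM replicate 1 and 861 and 741 CPM in sEVCTRL replicates 2 and 3. It was higher in the remaining glands. The part of these lists in the segments' results was not tested.

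Comparisons of single segments used edgeR's quasi-likelihood test across 17858 genes with Benjamini-Hochberg adjustment. Of the 69 segments, 68 passed the filter on low counts and Ighv1-5 did not, since only 1 gland had more than 8 of its counts. No segment passed an adjusted P of 0.05 in any comparison, where 0.0% of all genes did. The smallest adjusted P of a segment was 1.00 in all 3 comparisons, so the unadjusted results below are descriptions of the direction and size of differences.

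With sEVHYP against sEVCTRL, 11 of 68 segments were lower and 1 was higher at an unadjusted P under 0.05, where 1.06% and 1.39% of all genes were. The sEVHYP glands lay below all sEVCTRL glands for 10 segments and above them for 0, against 6.08% and 6.7% of genes. Log2 fold changes were below 0 for 54 of 68 segments (52.5% of genes), with a median of -0.95 over the segments and -0.02 over all genes. The segments were chosen by sums over all 8 libraries, and 21 would have fallen under 80 counts without their highest library. By CPM, sEVHYP replicate 1 was the highest gland for 10 segments and sEVHYP replicate 2 for 0. The rule can thus favor segments low in sEVHYP, and these values describe only the segments chosen. The number of lower segments depended on the gland left out, and the share of all genes is not given for these fits. In either direction, 16 segments passed without sEVCTRL replicate 2 and 12 without sEVCTRL replicate 3, against 12 with all glands. Without sEVHYP replicate 2, 4 segments were higher and 2 lower at the unadjusted P, without sEVCTRL replicate 1, 4 were higher and 4 lower, and without sEVHYP replicate 1, 0 were higher and 4 lower.

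Ighv14-4 had the smallest unadjusted P of this comparison. Its level was 2.33, 5.29 and 8.04 CPM in the sEVCTRL glands, 0.523, 1.82 and 0.851 in the sEVNORM glands and 0.595 and 0.428 in the sEVHYP glands. All 5 glands given AT3 sEVs lay below the 3 control glands. The log2 fold change of sEVHYP was -3.33 ± 0.72 (SE), with an unadjusted P of 0.00117 and an adjusted P of 1.00 by edgeR. DESeq2, run as another tool, called it at an adjusted P of 0.05 in this comparison, both with all 8 libraries and with only the 2 groups. The share of all genes that DESeq2 called is not given here, so this call is not set against a background. Ighv14-1, its closest segment, is 97.6% identical, and counts of the pair can be split.

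The lowest log2 fold changes belonged to Ighv2-6, Ighv1-36 and Ighv2-9-1. Ighv2-6 had 5, 0 and 44 counts in sEVCTRL, 12, 20 and 11 in sEVNORM and 0 in both sEVHYP glands. Against a floor of 3 counts per library, its mean CPM was at least 5.95-fold higher in sEVCTRL and at least 4.23-fold higher in sEVNORM than in sEVHYP. Of its 49 sEVCTRL counts, 44 came from replicate 3, the only gland outside sEVNORM with more than 5. Ighv2-6 therefore passed the filter on low counts only through sEVNORM glands, a group in which it was high, so no P is given.

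Ighv2-9-1 had 52, 5 and 2 counts in sEVCTRL, 13, 11 and 27 in sEVNORM and 1 and 0 in sEVHYP. Its pooled level was 39.9 times higher in sEVCTRL (counting interval 6.89 to 1603) and 30.1 times higher in sEVNORM (5.17 to 1213) than in sEVHYP. Of the 59 sEVCTRL counts, 52 came from replicate 1, the only gland outside sEVNORM with more than 5. Ighv2-9-1 thus also passed the filter only through sEVNORM glands, and no P is given. Without sEVCTRL replicate 1, its log2 fold change against sEVCTRL moved from -5.04 to -2.56. Without sEVHYP replicate 1 it was -7.39 and without sEVHYP replicate 2 it was -4.28. Ighv1-36 was low through 1 control gland, as its counts above show. Its log2 fold change of -6.23 became -0.01 without sEVCTRL replicate 1.

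Ighv1-39 was the only segment higher in sEVHYP at an unadjusted P under 0.05. A log2 fold change above 0 was seen for 14 of 68 segments against sEVCTRL and 13 against sEVNORM. The log2 fold changes of Ighv1-39 were 2.81 against sEVCTRL (unadjusted P 0.0205) and 2.93 against sEVNORM (P 0.0169). Both came from sEVHYP replicate 1. Without that gland they became -0.68 and -0.56.

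**Figure D5:**
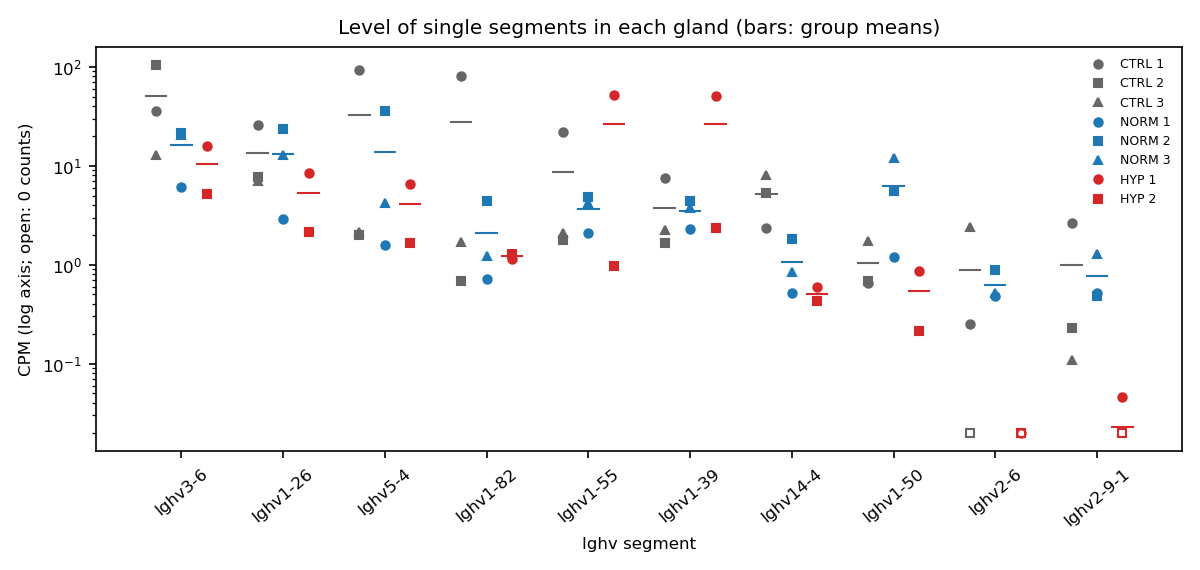
Level of 10 segments in each gland (CPM, log y axis), with 1 symbol for each replicate, color for the group and short bars for group means. Open symbols mark 0 counts, which have no position on a log axis, and Ighv14-4 is the segment for which all 3 control glands lie above all other glands.

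With sEVHYP against sEVNORM, 13 of 68 segments were lower and 1 was higher at an unadjusted P under 0.05, where 1.7% and 2.25% of all genes were. The lower ones include Ighv2-6, Ighv2-9-1, Ighv3-1 and Ighv1-72, each with fewer than 10 counts in both sEVHYP glands. These too passed the filter on low counts only through glands of the other groups. The sEVHYP glands lay below all sEVNORM glands for 22 segments and above them for 0, against 10.5% and 12.3% of genes, and 55 segments had a log2 fold change below 0 (53.0% of genes). The median was -1.21 over the segments and -0.02 over all genes. As in the comparison with sEVCTRL, the choice by summed counts can favor segments low in sEVHYP, so these values describe only the segments chosen. Without sEVHYP replicate 2, 3 segments were higher and 3 lower at the unadjusted P. Without sEVNORM replicate 2, 1 was higher and 6 lower, and without sEVHYP replicate 1, 0 were higher and 7 lower. The sEVHYP glands of both comparisons are the same 2 libraries, of which replicate 2 had the lowest CPM of all 8 glands for 30 of the 69 segments.

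Ighv1-50 was among the 3 lowest of this comparison. It stood at 0.870 and 0.214 CPM in sEVHYP and at 1.21, 5.54 and 11.96 CPM in sEVNORM, so that the groups did not overlap. The log2 fold change was -3.48 ± 1.02 (SE), with an unadjusted P of 0.00743, and P was 0.0507 without sEVHYP replicate 2. The sEVCTRL glands, at 0.660, 0.684 and 1.75 CPM, overlapped the sEVHYP glands. DESeq2 called Ighv1-50 and Ighv11-2 at an adjusted P of 0.05 with all 8 libraries, and Ighv1-9 as well with only the 2 groups. These calls too are not set against the share of all genes that DESeq2 called.

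With sEVNORM against sEVCTRL, 4 of 68 segments were higher and 2 were lower at an unadjusted P under 0.05, where 0.89% and 0.739% of all genes were. For 1 segment the sEVNORM glands lay above all sEVCTRL glands and for 1 below, against 2.69% and 2.17% of genes. Log2 fold changes were below 0 for 34 of 68 segments (50.2% of genes) and had a median of 0.00. The split by direction turned with the gland left out. It was 11 higher and 1 lower without sEVCTRL replicate 1 and 9 higher and 1 lower without sEVNORM replicate 1, but 1 higher and 7 lower without sEVCTRL replicate 2, 1 higher and 5 lower without sEVCTRL replicate 3 and 1 higher and 3 lower without sEVNORM replicate 2.

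By CPM, though not by share of Ighv counts, Ighv14-4 was the segment whose sEVNORM glands lay below all control glands. It had a log2 fold change of -2.29 ± 0.56 (SE) and an unadjusted P of 0.00278 by edgeR. It kept an unadjusted P under 0.05 in all 14 alternatives run. Ighv1-82 had -3.73, which turned to 0.81 without sEVCTRL replicate 1, its single high gland. Of the higher segments, Ighv1-50 had 2.60 (P 0.0108, and 0.0595 without sEVNORM replicate 3), Ighv6-6 had 2.14 (P 0.0467) and Ighv12-3 had 1.55 (P 0.0349). Ighv12-3 moved to 0.92 (P 0.187) without sEVNORM replicate 2 and to 1.13 (P 0.0898) without sEVCTRL replicate 2, and its P was 0.0865 without sEVCTRL replicate 3 and 0.0858 with the replicate number as a block. Ighv6-6 was at 23.6 CPM in sEVNORM replicate 2 and at 1.09 and 3.21 in the other sEVNORM glands, and without that gland its log2 fold change was 0.03.

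Among the constant regions, Ighg2c, of the IgG2c class, had log2 fold changes of -2.13 ± 0.59 (SE, P 0.00548) in sEVHYP against sEVCTRL and -1.95 ± 0.58 (SE, P 0.00861) against sEVNORM by edgeR, both with an adjusted P of 1.00. Its levels were 900, 290 and 385 CPM in sEVCTRL, 204, 580 and 600 in sEVNORM and 101.7 and 137 in sEVHYP. By CPM there was no overlap of sEVHYP and the other groups. As a share of constant region counts per kilobase, sEVHYP overlapped sEVNORM, with 13.1% in sEVHYP replicate 2 and 10.2% in sEVNORM replicate 1. Of all genes, 6.08% had sEVHYP below all sEVCTRL glands and 10.5% had it below all sEVNORM glands. Ighg2b had -2.03 against sEVCTRL (P 0.0299) and Igha -2.82 against sEVNORM (P 0.0294), both unadjusted.

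Of 30 other genes of antigen receptor assembly and B cell signaling, 26 were tested. In sEVHYP none was past an unadjusted P of 0.05 against either group, and the medians of their log2 fold changes were -0.36 and -0.47. In sEVNORM against sEVCTRL, 1 was higher, Rag1, a subunit of the recombinase that joins Ighv segments, and the median was 0.04 over the 26. Rag1 had 0, 0 and 2 counts in the sEVCTRL glands, 5, 14 and 11 in sEVNORM and 1 and 2 in sEVHYP. It passed the filter on low counts only through sEVNORM glands, the group in which it was high, so no fold change is given. Vpreb2, a surrogate light chain gene, had no count in any gland.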

How the data were processed

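Polyadenylated RNA of whole mammary glands was sequenced, 1 library per gland (sEVCTRL n = 3, sEVNORM n = 3, sEVHYP n = 2), with 18194996 to 24622569 counts each. The authors aligned reads with STAR to GRCm38 (mm10), estimated counts per gene with RSEM 1.2.12 and deposited them as whole-number counts. How the estimates were rounded and whether strand was used are not given in the sources used here. Reads of near-identical segments are shared by such estimates, and a segment's count is uncertain to that extent.

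Segments and gene lists were chosen with earlier results of these data known. Symbols, positions and sequences came from GENCODE M21. Genes were tested over all 8 libraries with edgeR 4.0.16 in R 4.3.3 (quasi-likelihood test, minimum count 10, TMM scaling, Benjamini-Hochberg adjustment), tested on simulated data, with DESeq2 1.42.0 as an alternative. CPM used the TMM-scaled library size. Shares carry exact 95% binomial intervals from SciPy 1.17.1. Intervals and floors (3 counts) cover counting error only, since the PCR-amplified reads had no molecular identifiers. Nothing in the labels ties a replicate number to a shared animal, litter or day.

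Segments named were the 3 with the highest count in each gland, up to 3 at either extreme of log2 fold change among those past an unadjusted P of 0.05 in each comparison (none passed the adjusted one), the 2 nearest to the limit of 80 counts on each side and the 5 highest and 5 lowest by single-gland share. Constant region genes, Jchain and genes of an antigen receptor list past an unadjusted P of 0.05 were also named. Other genes named, among them Vpreb2, Ighv11-2, the kappa segments and near copies in sequence, were added after their values were seen.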

Additional observations from a re-analysis of the deposited data

How the results depend on the processing

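The number of segments past an unadjusted P of 0.05 depended on the fit and on single glands, and the number tested changed with the filter. The share of all genes called is given only for the main fit, and the ranges below leave out fits with 1 sEVHYP gland. For sEVHYP against sEVCTRL it was 12 of 68, and 22 of 69 with no filter. With at least 10 counts in every library it was 4 of 23, and it was 8 to 16 without 1 sEVCTRL or sEVNORM gland. For sEVHYP against sEVNORM it was 14 of 68, and 24 of 69 by DESeq2 on the 2 groups. With at least 10 counts in every library it was 6 of 23, and it was 7 to 17 without 1 sEVCTRL or sEVNORM gland. For sEVNORM against sEVCTRL it was 6 of 68, and 14 of 69 with no filter, and 4 to 12 without 1 gland. With the replicate number as a block the numbers were 6, 9 and 3 of 68. Deviations of same-numbered glands correlated between -0.42 and 0.37, so the numbers were not taken to pair the glands.

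Without 1 gland, the log2 ratios of the summed level ran from -2.44 to 0.10, from -1.97 to 0.28 and from -0.91 to 0.55, in the same order of comparisons. Differences of the effective number ran from -4.41 to 11.3 (-2.24 without sEVCTRL replicate 2), from -16.5 to -0.72 and from 6.37 to 17.7, and counted as segments seen at equal depth the first was -2.05 and the last 3.25. Per base of exon, the leading share was 15.2% and 22.5% in the first glands of sEVCTRL and sEVHYP and 8.31% and 10.4% in the first and the second of sEVNORM. Segments with over 50% of their CPM in 1 gland numbered 21, and 22 to 28 without 1 gland, while by share of Ighv counts 11 were over 50%. Ighv1-39 ranged from -0.68 to 3.75 against sEVCTRL and from -0.56 to 3.86 against sEVNORM, and Ighv1-82 from -4.84 to 0.81 in sEVNORM against sEVCTRL, all without 1 gland. DESeq2 gave no P for Ighv1-36 in sEVHYP against sEVCTRL and for Ighv1-82 in sEVNORM against sEVCTRL. The causes of these shifts were not tested. Depth limits sEVHYP replicate 2 most, with 940 Ighv counts.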
